A study of Homo sapiens with 18 samples.

Results

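The genes of the actomyosin cytoskeleton, together with the transcription factor SRF, were examined across a time course of YAP1 knockdown in tumors. The members were 44 named genes, chosen by their known function and with earlier results of these data known. They were 4 actins, 11 thin-filament regulators, 8 myosin II subunits with their kinase, 11 genes of actin turnover and nucleation, 9 cross-linkers and LIM or stress-fiber proteins, and SRF. All 44 were found among the 20222 gene symbols of the table. The tumors were grown from MSTO-211H, a human malignant pleural mesothelioma cell line, stably carrying a doxycycline-inducible short hairpin RNA against YAP1 (sh-YAP1). The cells were implanted subcutaneously with Matrigel in SCID mice, and every mouse drank glucose water. The group at 0 h (n = 5) was sampled before doxycycline, and the groups labelled 24 h (4 tumors), 96 h (5 tumors) and 216 h (4 tumors) had doxycycline in the water for that time, while the study's own description also mentions a group taken off doxycycline after 96 h, so that the treatment of the tumors labelled 216 h was not settled. Among the samples analysed here, none carried a hairpin against another target, and the labels of every later tumor name doxycycline. Each time point was 1 cage group, so that cage and time cannot be told apart. SCID mice lack B and T lymphocytes but keep myeloid cells, fibroblasts and vessels of their own, and the treatment of mouse reads is not given in the sources used here.

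Actomyosin is the contractile machinery of non-muscle and smooth muscle cells. Actin monomers polymerise into filaments, tropomyosins, calponins, transgelins and caldesmon coat those filaments and set their access to myosin, and myosin II, switched on by phosphorylation of its regulatory light chains, pulls them together. Free actin monomers hold the coactivators MRTF-A and MRTF-B in the cytoplasm, and filament assembly releases them to SRF, which binds CArG boxes in the promoters of actin and many actin-binding genes. YAP1 acts with TEAD factors on a set of genes that partly overlaps the SRF targets, and the cytoskeleton in turn affects YAP1 activity.

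Values were FPKM, fragments scaled to the length of the gene and to the mapped reads of the library. The libraries were enriched by capture, whose yield can differ between genes, so that levels of different genes are given as deposited and compare only roughly. The depth of the libraries is unknown, because the files hold no counts. YAP1, the targeted gene, had 7.71, 10.2, 6.68, 4.82 and 6.89 FPKM at 0 h, 8.16, 4.60, 5.47 and 5.01 at 24 h, 3.72, 3.39, 6.81, 4.37 and 5.58 at 96 h and 6.42, 5.60, 8.85 and 7.84 at 216 h. The groups overlapped in each comparison, and YAP1 differed from 0 h by -0.27 ± 0.20 (SE), -0.52 ± 0.19 and 0.00 ± 0.20 on the log2(FPKM + 1) scale at 24, 96 and 216 h (limma adjusted p = 0.742, 0.221 and 0.999). The deposited YAP1 values therefore did not check the labels, and directions below refer to tumors as labelled. Mitochondrially encoded genes took 80.0 to 83.8% of the FPKM at 0 h, 80.4 to 84.8% at 24 h, 77.6 to 83.3% at 96 h and 74.9 to 76.0% at 216 h, so that the share left to nuclear genes differed between groups. Genes listed at 0 numbered 6000 to 6174 at 0 h and 4767 to 4873 at 96 h, while the tumors at 24 h (4832 to 6491) and 216 h (5179 to 6013) fell on both sides. Of the mesothelial and epithelial markers, KRT8, KRT18 and MSLN were detected, the means of WT1 and UPK3B were under 1 FPKM in every group, and PDPN was listed at 0 in every tumor. The p-values measure the spread between tumors of separate mice.

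The members spanned a wide range of levels. ACTB, the cytoplasmic beta-actin, ran from 619 to 881 FPKM over the 18 tumors, TMSB10, a thymosin that binds actin monomers, from 501 to 838, PFN1, the monomer-binding profilin, from 457 to 585, and ACTG1, the cytoplasmic gamma-actin, from 365 to 526. At the other end, the smooth muscle genes MYH11, the smooth muscle myosin heavy chain, LMOD1, a leiomodin that nucleates filaments, and CNN1, the smooth muscle calponin, stayed under 1 FPKM in every tumor. Those 3 genes and SYNPO2, a stress-fiber protein of muscle that ran from 0.324 to 1.70 FPKM, did not reach the minimum of 1 FPKM in 4 tumors and were not tested, so 40 of the 44 members were tested. MYH11 was at 0.0559, 0, 0.0287, 0.0292 and 0.0314 FPKM at 0 h, 0.0448, 0, 0.0118 and 0.0192 at 24 h, 0.0308, 0.0157, 0.0940, 0.0528 and 0.0218 at 96 h and 0.0254, 0.0104, 0.0524 and 0.0435 at 216 h. CNN1 was at 0.389, 0.212, 0, 0.278 and 0.181 FPKM at 0 h, 0, 0.0668, 0.0339 and 0.103 at 24 h, 0.0319, 0.0766, 0.864, 0.0979 and 0.0966 at 96 h and 0.0647, 0.131, 0.646 and 0.0455 at 216 h. Both were near the bottom of the scale in all groups, and the highest CNN1 values belonged to 1 tumor at 96 h (animal 27) and 1 at 216 h (animal 19).

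**Figure D1:**
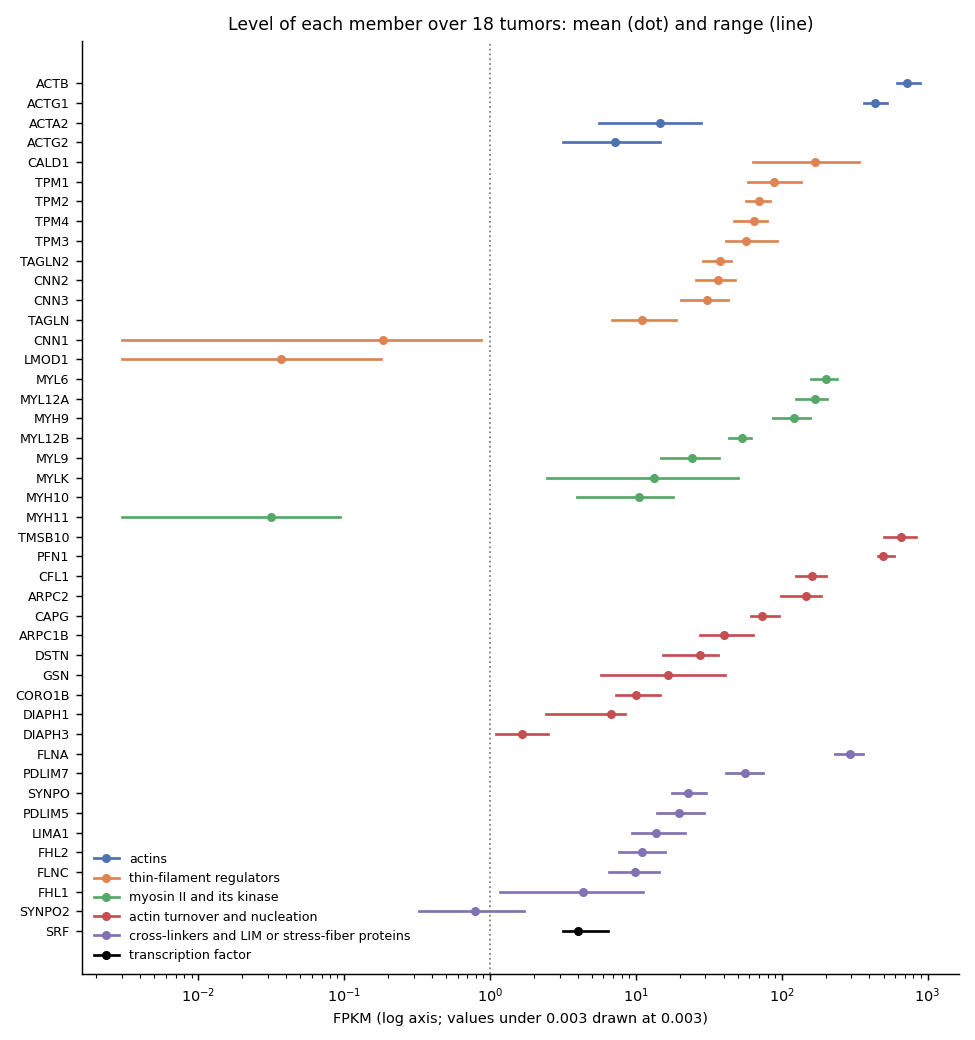
Level of each of the 44 members in FPKM on a log axis, with the mean over the 18 tumors as a dot and the range as a line, colored by role. Beta-actin, thymosin, profilin and gamma-actin are at the right, and the smooth muscle genes CNN1, LMOD1 and MYH11 are left of the dotted line at 1 FPKM.

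Few members changed at 24 and 96 h, and more changed at 216 h. A gene was called at a Benjamini-Hochberg adjusted p under 0.05 in limma over all 11379 gene rows tested. At 24 h none of the 40 members was higher and 1 was lower (CALD1), against 0.00879% of all gene rows higher and 0.149% lower. At 96 h none was higher and 2 were lower (CALD1 and MYL9), against 0.316% higher and 1.06% lower. At 216 h, 7 members were higher (ACTG2, TPM1, GSN, CORO1B, ARPC1B, PDLIM7 and SRF) and 1 was lower (FLNC), which is 17.5% and 2.5% of the 40, against 19.7% of all gene rows higher and 3.6% lower. Between 96 and 216 h, 6 members were higher (TPM1, MYL9, CFL1, CORO1B, ARPC1B and SRF) and none lower, which is 15% of the members, against 10.3% higher and 0.747% lower. At an unadjusted p under 0.05 the members numbered 13, 11, 14 and 19 in these comparisons. No share of all gene rows was computed at that cut, so these counts are not read as a result about the members. The median log2 difference of the members from 0 h was -0.15 at 24 h, -0.10 at 96 h and 0.09 at 216 h, beside medians of -0.04, 0.02 and 0.17 over all genes tested. The share of members called was thus near the background at 216 h and rested on 1 and 2 genes at the earlier times.

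**Figure D2:**
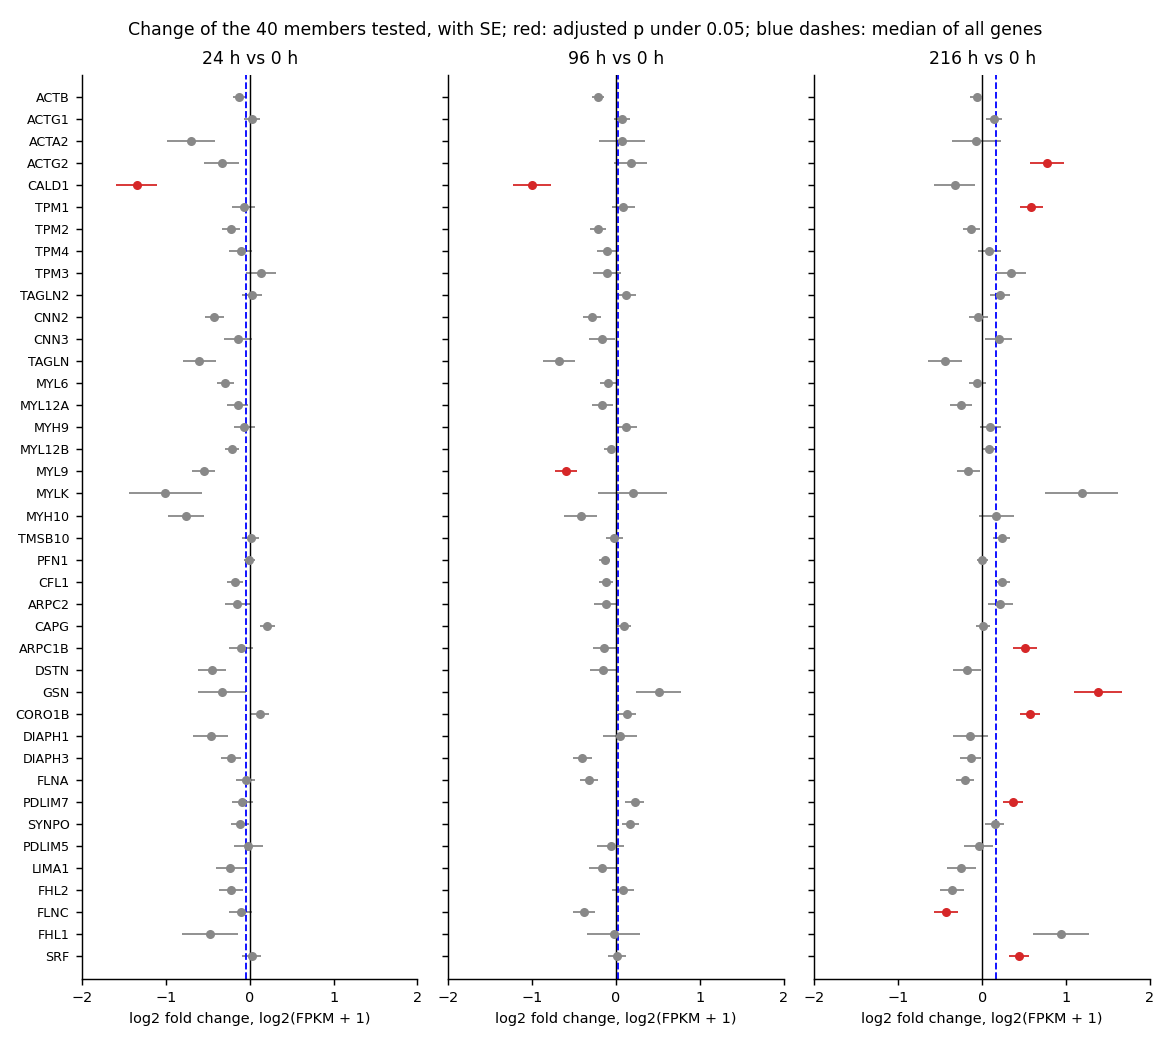
Difference from 0 h on the log2(FPKM + 1) scale with its SE for the 40 members tested, ordered by role and level, at 24, 96 and 216 h. CALD1 is farthest left at 24 and 96 h, GSN farthest right at 216 h, and the dashed line marks the median of all genes (-0.04, 0.02 and 0.17).

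The largest fall among the members was that of CALD1, the gene of caldesmon, an actin-binding protein that restrains myosin. CALD1 (chr7:134779420-134970728, GRCh38, in an interval inside the annotated gene) was at 193, 300.3, 284, 239 and 213 FPKM at 0 h, 63.6, 104, 113 and 106 at 24 h, 117, 92.9, 114, 119 and 172 at 96 h and 176, 341, 197 and 118 at 216 h. All 4 tumors at 24 h and all 5 at 96 h lay below the lowest tumor at 0 h, while at 216 h 1 tumor lay above the highest at 0 h and 2 below the lowest. The mean fell by 60.7% at 24 h and by 49.9% at 96 h, which is -1.35 ± 0.25 (SE) and -1.002 ± 0.23 on the log2 scale (limma adjusted p = 0.0311 and 0.0365). At 216 h the difference from 0 h was -0.33 ± 0.25 (adjusted p = 0.363), and that from 96 h was 0.68 ± 0.25 (adjusted p = 0.0822). The call at 24 h was lost without tumor 2, 3 or 5 at 0 h or tumor 1, 2 or 4 at 24 h (adjusted p at most 0.0941), and that at 96 h without tumor 2, 3, 4 or 5 at 0 h or tumor 1, 2, 3 or 4 at 96 h (at most 0.0935), with differences that stayed between -1.44 and -1.16 and between -1.13 and -0.91. The 24 h tumors with many genes listed at 0, like those at 0 h, had 63.6 and 104 FPKM and those with few had 113 and 106, and with the former alone the difference was -1.56 with an adjusted p of 0.279. Every tumor at 0 h had many genes listed at 0 and every tumor at 96 h few, so that this split and the time cannot be told apart in that comparison, where a term for the split gave CALD1 an adjusted p of 0.252, as it gave 0.0705 at 24 h. The calls at 24 and 96 h were also lost with quantile normalization (adjusted p = 0.0518 and 0.0608) and without a filter on low values (0.0756 and 0.0713), and that at 24 h with only the 2 groups compared in the fit (0.0564).

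The other thin-filament regulators moved less. TPM1, a tropomyosin, was at 86.1, 73.6, 88.6, 58.9 and 89.6 FPKM at 0 h, 75.1, 77.0, 67.4 and 78.4 at 24 h, 87.2, 67.8, 87.4, 73.3 and 107 at 96 h and 101, 135, 132 and 108 at 216 h. All 4 tumors at 216 h lay above every tumor at 0 h, and 3 of them above every tumor at 96 h. TPM1 rose at 216 h by 0.59 ± 0.14 against 0 h and by 0.50 ± 0.14 against 96 h (limma adjusted p = 0.00577 and 0.0284), the latter call being lost without tumor 2 or 4 at 96 h or tumor 2 or 3 at 216 h (adjusted p at most 0.0926). TPM2, TPM3 and TPM4, its paralogs, were not called at any time, with differences at 216 h of -0.13, 0.34 and 0.08. As a share of the summed tropomyosin FPKM, TPM1 went from 28.8% ± 2.96 (SD, n = 5) at 0 h to 36.3% ± 2.99 (n = 4) at 216 h, and TPM2 from 27.9% ± 1.19 to 21.4% ± 1.12, with no overlap between the groups for either gene.

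TAGLN, the gene of transgelin or SM22, a calponin-like filament stabiliser and a classical SRF target, was at 17.4, 18.9, 15.9, 9.25 and 13.4 FPKM at 0 h, 9.10, 10.2, 7.62 and 10.4 at 24 h, 7.79, 7.29, 14.8, 6.90 and 8.53 at 96 h and 9.02, 12.4, 10.1 and 10.6 at 216 h. The tumor of animal 27 stood above the others at 96 h, and 4 of the 5 tumors at that time lay below all at 0 h. TAGLN differed from 0 h by -0.60 ± 0.20, -0.68 ± 0.19 and -0.44 ± 0.20 and passed the threshold at no time (limma adjusted p = 0.333, 0.094 and 0.122). CNN2 and CNN3, the calponins of non-muscle cells, and TAGLN2, the non-muscle transgelin, were not called either, the largest difference being that of CNN2 at 24 h (-0.42, adjusted p = 0.187, 4 of 4 tumors below all at 0 h). LMOD1 reached at most 0.179 FPKM.

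Among the myosin II genes the regulatory light chain MYL9, the form prominent in smooth muscle, was the member called. MYL9 was at 34.1, 36.9, 27.4, 24.5 and 28.3 FPKM at 0 h, 18.4, 21.9, 20.3 and 20.0 at 24 h, 24.1, 14.8, 20.4, 18.5 and 20.8 at 96 h and 24.6, 29.2, 29.9 and 23.3 at 216 h. All 4 tumors at 24 h and all 5 at 96 h were below the lowest at 0 h, and the tumors at 216 h overlapped those at 0 h. The fall passed the test at 96 h (-0.59 ± 0.13, limma adjusted p = 0.0259), while at 24 h the difference was -0.55 ± 0.14 (adjusted p = 0.135) and at 216 h -0.16 ± 0.14 (adjusted p = 0.414). Between 96 and 216 h MYL9 rose by 0.43 ± 0.14, with an adjusted p of 0.0498 that crossed the threshold without tumor 2, 3, 4 or 5 at 96 h or any single tumor at 216 h (at most 0.142). That rise also lost its call without a filter on low values (limma adjusted p = 0.0622) and with 0.1 instead of 1 added to the FPKM (0.0548). It was lost as well without the trend in the empirical Bayes step (0.0555) and with only the 2 groups compared in the fit (0.0657). The call at 96 h was lost without tumor 1 or 2 at 0 h or tumor 2, 3 or 4 at 96 h (adjusted p at most 0.0691), and with a term for the split by genes listed at 0 (adjusted p = 0.346). With only the 2 groups compared in the fit it was lost too (limma adjusted p = 0.0716). MYL9 made up 11.2% ± 1.37 (SD, n = 5) of the summed FPKM of the regulatory light chains at 0 h, 8.65% ± 0.98 (n = 4) at 24 h, 8.27% ± 0.98 (n = 5) at 96 h and 11.1% ± 0.87 (n = 4) at 216 h.

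The heavy chain MYH9, of non-muscle myosin IIA, was at 117, 130.4, 118, 127 and 96.6 FPKM at 0 h, 123, 124, 86.7 and 119 at 24 h, 102, 119, 157, 124 and 144 at 96 h and 121, 134, 131 and 117 at 216 h. The groups overlapped, and MYH9 differed from 0 h by at most 0.12 (at 96 h, limma adjusted p = 0.724). MYH10, of non-muscle myosin IIB, was lower than every tumor at 0 h in 4 of 4 tumors at 24 h, at 3.97 to 7.90 FPKM beside 9.83 to 18.0, but its difference of -0.76 ± 0.21 was not called (adjusted p = 0.207). The essential light chain MYL6 and the regulatory light chains MYL12A and MYL12B were not called at any time, with differences from 0 h between -0.29 (MYL6 at 24 h) and 0.09 (MYL12B at 216 h). MYLK, the kinase that phosphorylates the regulatory light chains, was at 4.24 to 16.9 FPKM at 0 h, 2.44 to 8.36 at 24 h, 6.62 to 17.9 at 96 h and 13.0 to 49.9 at 216 h. Its difference of 1.19 ± 0.43 at 216 h lay just outside the threshold (adjusted p = 0.0552).

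**Figure D3:**
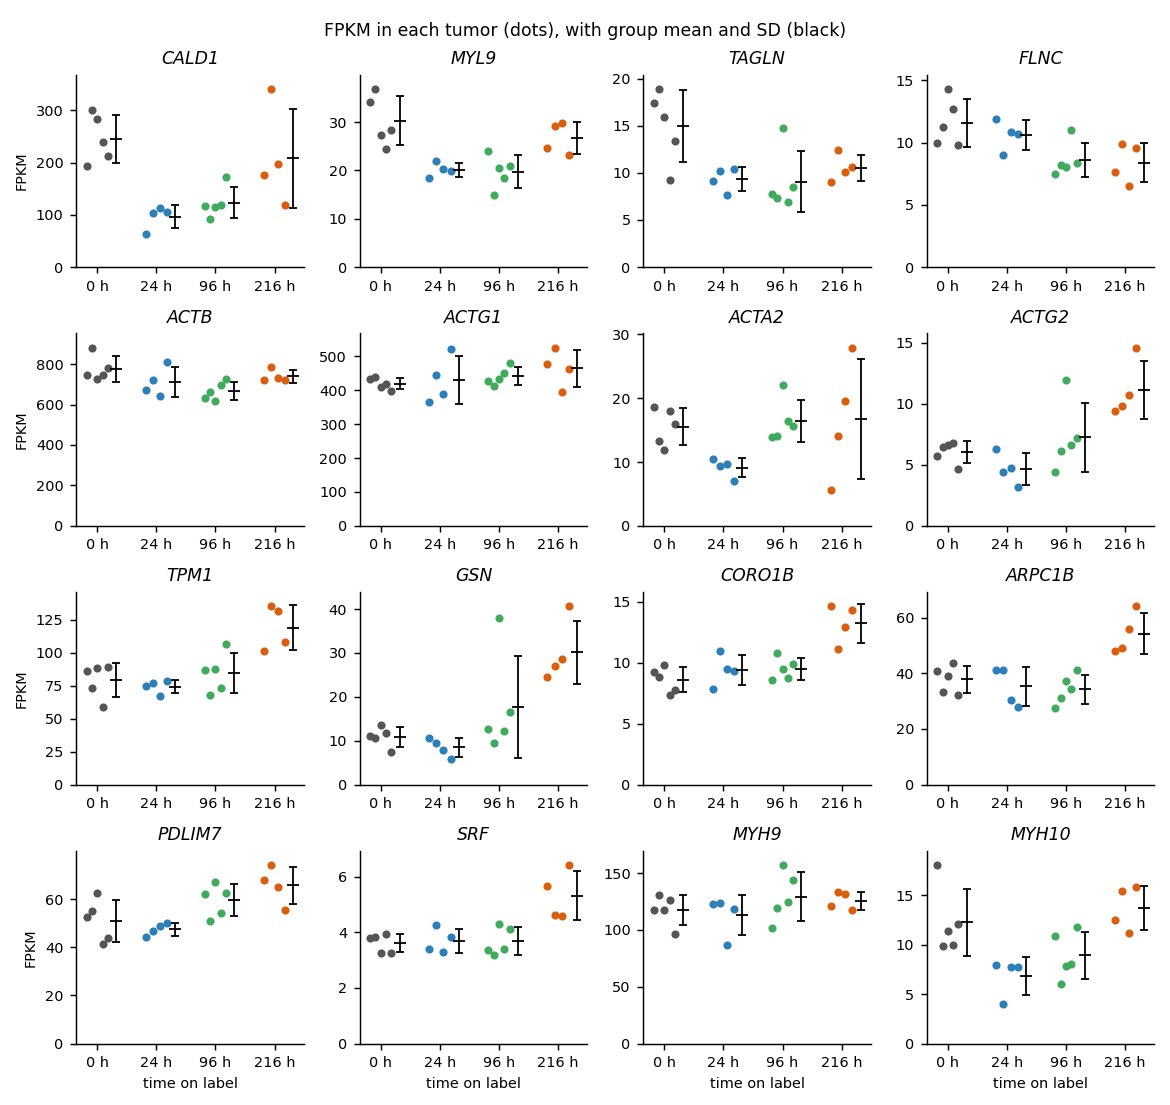
FPKM of 16 members in each tumor (dots) by the time on the label, with the group mean and SD in black, each axis starting at 0. For CALD1 and MYL9 all dots at 24 and 96 h are below those at 0 h, and for TPM1, GSN, CORO1B, ARPC1B, ACTG2 and SRF all 4 dots at 216 h are above those at 0 h.

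The cytoplasmic actins were not called at any time. ACTB was at 744, 881, 724, 747 and 783 FPKM at 0 h, 673, 722, 639.9 and 812 at 24 h, 632, 664, 619, 699 and 725 at 96 h and 720.2, 787, 729 and 724 at 216 h. At 96 h, 4 of 5 tumors were below all at 0 h, but the difference of -0.22 ± 0.07 was not called (limma adjusted p = 0.176). ACTG1 was at 433, 438, 411, 419 and 399 FPKM at 0 h, 365, 444, 389.6 and 522 at 24 h, 428, 414, 433, 452 and 481 at 96 h and 478, 526, 395 and 462 at 216 h, with differences from 0 h of 0.02, 0.07 and 0.14, none called. ACTB made up 63.7% ± 1.68 (SD, n = 5) of the summed FPKM of the 4 actins at 0 h and 58.9% ± 1.28 (n = 5) at 96 h, and ACTG1 34.6% ± 1.497 and 39.0% ± 0.89.

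The muscle-type actins were much lower and behaved differently from each other. ACTA2, smooth muscle alpha-actin and the usual marker of myofibroblasts and vessel wall, was at 18.6, 13.3, 11.9, 18.0 and 16.0 FPKM at 0 h, 10.5, 9.43, 9.64 and 6.99 at 24 h, 14.0, 14.0, 22.1, 16.4 and 15.7 at 96 h and 5.57, 14.1, 19.5 and 27.9 at 216 h. The 4 tumors at 24 h were all below every tumor at 0 h, whereas the tumors at 216 h spread on both sides, and ACTA2 was not called at any time (differences -0.70, 0.07 and -0.07; limma adjusted p = 0.45, 0.944 and 0.891). ACTG2, the enteric smooth muscle gamma-actin, was at 5.74, 6.46, 6.65, 6.75 and 4.67 FPKM at 0 h, 6.32, 4.39, 4.75 and 3.19 at 24 h, 4.41, 6.12, 11.9, 6.58 and 7.18 at 96 h and 9.42, 9.86, 10.7 and 14.6 at 216 h. The tumors at 216 h all exceeded every tumor at 0 h, and animal 27 was the highest at 96 h. ACTG2 rose by 0.77 ± 0.21 at 216 h (adjusted p = 0.0115), from 6.05 ± 0.872 to 11.1 ± 2.36 FPKM (mean ± SD). Because actins and their pseudogenes share sequence, 16.0% of the 31-base stretches of ACTB and 12.1% of those of ACTG1 in the GENCODE 29 transcripts also occurred in other genes, and how the deposited values split such reads is not given in the sources used here.

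Ratios of paralogs within a tumor do not depend on the scaling of that tumor. The log2 ratio of ACTG1 to ACTB was -0.78, -1.01, -0.82, -0.83 and -0.97 in the tumors at 0 h and -0.56, -0.68, -0.52, -0.63 and -0.59 at 96 h. All 5 tumors at 96 h were above all 5 at 0 h, a mean difference of 0.29, with p = 0.00794 in a two-sided exact permutation test, the smallest this design can give, and an adjusted p of 0.0714 over the 9 ratio tests. The difference was 0.15 at 24 h and 0.21 at 216 h (exact permutation p = 0.0794 and 0.0635, adjusted p = 0.119 for both). Every tumor at 0 h had many genes listed at 0 and every tumor at 96 h few, so that this split and the time cannot be told apart between them. In the tumors with many genes listed at 0 alone, the difference at 24 h was 0.090. The log2 ratio of MYH10 to MYH9 was lower than at 0 h by a mean difference of -0.79 at 24 h (exact permutation p = 0.0476, adjusted p = 0.119) and of -0.59 at 96 h (p = 0.0794, adjusted p = 0.119), with 3 tumors below all at 0 h at each of those times. At 216 h that ratio differed from 0 h by 0.08 (exact permutation p = 0.762). The log2 ratio of MYL12B to MYL12A differed by -0.07, 0.10 and 0.34 (exact permutation p = 0.524, 0.452 and 0.0635). None of the 9 ratio tests passed the adjustment.

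**Figure D4:**
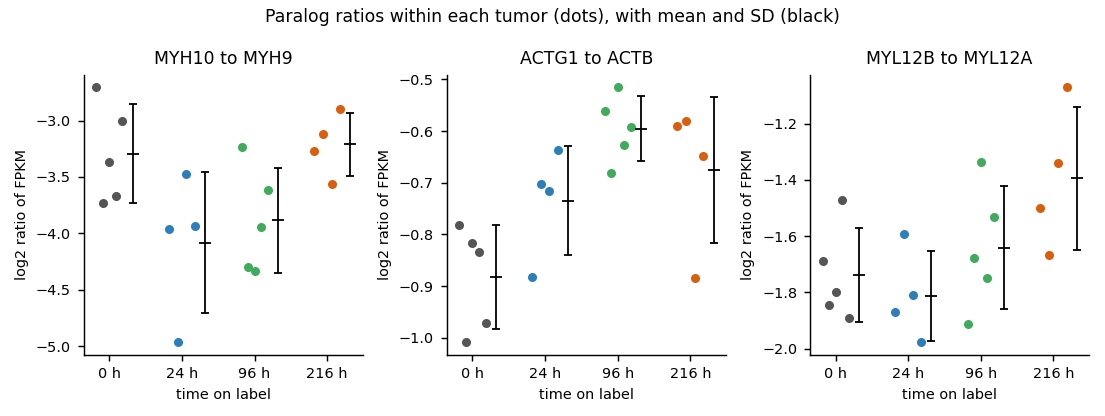
Log2 ratios of FPKM of 3 pairs of paralogs in each tumor (dots) by the time on the label, with group mean and SD in black. For ACTG1 to ACTB the 5 tumors at 96 h are all above the 5 at 0 h, and for MYH10 to MYH9 the groups at 24 and 96 h are low but overlap 0 h.

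Among the genes of actin turnover and nucleation, 3 of 11 rose at 216 h (27.3%, beside 19.7% of all gene rows). GSN, the gene of gelsolin, which severs and caps filaments and is abundant in fibroblasts, was at 11.0, 10.7, 13.6, 11.8 and 7.40 FPKM at 0 h, 10.5, 9.61, 8.00 and 5.81 at 24 h, 12.6, 9.50, 38.0, 12.2 and 16.5 at 96 h and 24.5, 27.0, 28.6 and 40.6 at 216 h. The 216 h tumors were all above those at 0 h, and at 96 h animal 27 stood apart from the other 4. GSN rose by 1.39 ± 0.29 at 216 h (limma adjusted p = 0.00219), the largest change of a member at that time, with a mean 177% above that at 0 h. At 96 h the difference was 0.51 ± 0.27 (adjusted p = 0.451).

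CORO1B, the gene of coronin 1B, which regulates the ARP2/3 complex at the leading edge, was at 9.24, 8.82, 9.81, 7.36 and 7.76 FPKM at 0 h, 7.89, 10.9, 9.48 and 9.33 at 24 h, 8.59, 10.8, 9.47, 8.77 and 9.92 at 96 h and 14.6, 11.1, 12.9 and 14.4 at 216 h. All 4 tumors at 216 h exceeded every tumor at the other 3 times. CORO1B rose by 0.57 ± 0.12 against 0 h and by 0.44 ± 0.12 against 96 h (limma adjusted p = 0.0019 and 0.0209), the latter call being lost without tumor 1 or 4 at either of those times (adjusted p at most 0.0649). Of its transcript stretches, 22.7% were shared with PTPRCAP, an overlapping leukocyte gene that reached at most 0.185 FPKM in these tumors.

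ARPC1B, a subunit of the ARP2/3 complex that nucleates branched filaments and is prominent in blood cells, was at 40.8, 33.3, 39.1, 43.6 and 32.2 FPKM at 0 h, 41.3, 41.3, 30.6 and 28.0 at 24 h, 27.7, 31.2, 37.3, 34.2 and 41.2 at 96 h and 47.8, 49.1, 55.9 and 64.0 at 216 h. Again the 4 tumors at 216 h lay above all others, and ARPC1B rose by 0.51 ± 0.14 against 0 h and by 0.65 ± 0.14 against 96 h (limma adjusted p = 0.0151 and 0.00816). Of its transcript stretches 35.1% occurred in other genes, 29.2% in the annotated gene AC004922.1, so its level is uncertain. ARPC2, another subunit, was not called (0.22 at 216 h, adjusted p = 0.313). Without the fourth tumor at 216 h the ARPC1B call against 0 h was lost (adjusted p = 0.0578).

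CFL1, the gene of cofilin, which severs filaments, rose between 96 and 216 h by 0.36 ± 0.09 (limma adjusted p = 0.0182), from 125 to 169.6 to 181 to 201 FPKM. That call was lost without the second tumor at 96 h or the fourth at 216 h (adjusted p = 0.0529 and 0.0512). Its paralog DSTN, destrin, was not called at any time. PFN1, TMSB10, CAPG, a capping protein, and the formins DIAPH1 and DIAPH3, which elongate unbranched filaments, were not called either. DIAPH3 came closest, with -0.40 ± 0.12 at 96 h (adjusted p = 0.112). The table splits DIAPH1 over 3 intervals, of which the one with the highest level was used, and another, with a mean of 4.76 FPKM, was called at 216 h (0.33, adjusted p = 0.0478).

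The cross-linkers and LIM proteins held 1 member that rose and 1 that fell at 216 h. FLNC, filamin C, the filamin of muscle, was at 9.93, 11.2, 14.3, 12.7 and 9.82 FPKM at 0 h, 11.9, 9.03, 10.8 and 10.7 at 24 h, 7.51, 8.23, 8.01, 11.0 and 8.37 at 96 h and 7.63, 9.86, 6.52 and 9.53 at 216 h. At 216 h 3 of 4 tumors were below all at 0 h, and FLNC fell by 0.43 on the log2 scale (SE 0.14, limma adjusted p = 0.0344). The call was lost without tumor 3 or 4 at 0 h or tumor 1 or 3 at 216 h (adjusted p at most 0.128). FLNA, filamin A, at 232 to 363 FPKM, was below all tumors at 0 h in 5 of 5 tumors at 96 h (-0.32 ± 0.10, adjusted p = 0.15) but was not called.

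PDLIM7, the gene of enigma, a PDZ-LIM protein of stress fibers, was at 52.4, 54.9, 62.7, 41.2 and 43.7 FPKM at 0 h, 44.1, 46.7, 48.8 and 50.01 at 24 h, 62.3, 51.0, 67.1, 54.2 and 62.6 at 96 h and 68.1, 74.0, 65.2 and 55.6 at 216 h. At 216 h 3 of 4 tumors were above all at 0 h, and PDLIM7 rose by 0.37 ± 0.12 (limma adjusted p = 0.033), a call lost without tumor 4 or 5 at 0 h or tumor 1, 2 or 3 at 216 h (adjusted p at most 0.101). FHL1, a LIM protein abundant in skeletal muscle, was at 2.15 to 8.67 FPKM at 0 h and 3.57 to 11.1 at 216 h (0.94 ± 0.34, adjusted p = 0.0502), just outside the threshold. Its relative FHL2, a coactivator that is itself an SRF target, was at 9.28 to 14.2 and 7.61 to 9.80 FPKM (-0.36 ± 0.14, adjusted p = 0.076). PDLIM5, SYNPO (synaptopodin) and LIMA1 (EPLIN) were not called at any time.

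SRF, the transcription factor common to many of these genes, was at 3.79, 3.84, 3.27, 3.95 and 3.27 FPKM at 0 h, 3.41, 4.26, 3.29 and 3.82 at 24 h, 3.38, 3.19, 4.31, 3.39 and 4.12 at 96 h and 5.67, 4.63, 4.58 and 6.41 at 216 h. All 4 tumors at 216 h were above every tumor at the other times. SRF was not called at 24 and 96 h (0.02 ± 0.12 and 0.01 ± 0.11, limma adjusted p = 0.975 and 0.976) and rose at 216 h by 0.44 ± 0.12 against 0 h and 0.43 ± 0.12 against 96 h (adjusted p = 0.0108 and 0.0241). The call against 96 h was lost without tumor 1, 2 or 4 at 96 h or tumor 1 or 4 at 216 h (adjusted p at most 0.0876), and that against 0 h in the tumors with many genes listed at 0 alone (0.41, adjusted p = 0.104). The members that were higher at 216 h included SRF itself, TPM1 and ACTG2, while TAGLN, ACTA2, CALD1 and MYL9, also regarded as SRF targets, were not called higher than at 0 h.

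Promoter sequence was examined because SRF and TEAD bind defined motifs. RefSeq promoter windows (GRCh38.p14, 250 bases before to 50 after the start) were found for 39 of the 44 members, the others being ACTB, ARPC1B, MYH11, MYL9 and TAGLN. A CArG box, the SRF motif, on either strand was present in a window of 9 of the 39 members (23.1%), compared with 1.60% of 27305 genes: ACTG1, ACTG2, CNN2, FHL1, FHL2, FLNA, MYLK, SRF and TPM4. GGAATG or its reverse complement, the core of the TEAD motif, was present for 15 of 39 members (38.5%) and 16.7% of all genes. The members had more windows per gene, which raises their shares by gene. By window, the TEAD core was in 19.3% of 83 member windows and 14.0% of all 35116. The CArG box was in 13.3% and 1.29% of them. Since SRF-linked genes were part of the selection, the share with a CArG box is a description, and a match says which letters are there, not what binds. Of the 9 members with a CArG box, ACTG2 and SRF were called higher at 216 h, beside 17.5% of the 40 members tested and 19.7% of all gene rows. Both calls were lost with quantile normalization and with median scaling. The other 7 were not called in any comparison with 0 h. Stretches from windows outside annotated exons are printed below on the strand of the gene, to show the paired boxes of SRF next to the single ones of CNN2 and TPM4, with the CArG boxes in capitals (chr6:43171219-43171268, chr19:1026499-1026548 and chr19:16067345-16067394, all on the plus strand).
SRF: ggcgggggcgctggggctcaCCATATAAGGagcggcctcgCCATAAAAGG
CNN2: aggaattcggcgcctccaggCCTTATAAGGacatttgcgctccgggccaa
TPM4: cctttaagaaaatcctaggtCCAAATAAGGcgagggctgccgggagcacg
The boxes of SRF begin 30 and 10 bases before its start, those of CNN2 and TPM4 89 and 173 bases before theirs. The TEAD core in a promoter window of CALD1 and of FLNC, members that fell at 24 and 96 h and at 216 h, is shown next in capitals. It is in its reverse orientation in both stretches (chr7:134745405-134745450 and chr7:128830283-128830328, plus strand).
CALD1: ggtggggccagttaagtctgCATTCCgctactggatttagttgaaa
FLNC: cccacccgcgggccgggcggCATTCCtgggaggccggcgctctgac
The CALD1 stretch shown lies before the interval of its FPKM values, which starts at chr7:134779420. Another CALD1 window holds the core in its forward orientation at that start (chr7:134779420-134779465), in a stretch that overlaps an annotated CALD1 exon. The other members with this core included ACTA2, CNN3, DIAPH3, FHL1, FHL2, LIMA1, MYH9, MYH10 and PFN1, which were not called in any comparison with 0 h. LMOD1 and SYNPO2 also held it and were not tested. CALD1 and FLNC were shown as members called lower, and a relation of the core to the changes was not tested.

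Other genes of actin regulation were read from lists that included SRF partners, further filament proteins and focal adhesion. Of 68 symbols listed, 66 stood in the table, MRTFA and MRTFB under their older symbols MKL1 and MKL2, and 63 were tested. By limma none rose and 1 fell at 24 h, none rose and 5 fell at 96 h (ANLN, CORO1C, EZR, MSN and PXN), and 13 rose and 8 fell at 216 h. At an unadjusted p under 0.05 they numbered 13, 10 and 28, a cut at which no share of all gene rows was computed. Those called at 216 h were 20.6% higher and 12.7% lower of the 63, beside 19.7% and 3.6% of all gene rows, and those lower at 24 and 96 h were 1.59% and 7.94%, beside 0.149% and 1.06%. The 3 largest rises at 216 h were those of PDLIM3 (1.04 ± 0.36), a PDZ-LIM protein of muscle, SVIL (0.96 ± 0.31), supervillin, and RDX (0.89 ± 0.29), radixin (limma adjusted p = 0.0417, 0.0312 and 0.0316). The 3 largest falls were those of MSN (-0.65 ± 0.10), moesin, RND3 (-0.42 ± 0.12) and EZR (-0.40 ± 0.12), ezrin (limma adjusted p = 0.0003, 0.0123 and 0.0171).

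MSN, which with ezrin and radixin links filaments to the membrane, was the gene called at 24 h. It was at 36.7, 43.6, 36.9, 35.4 and 36.5 FPKM at 0 h, 18.2, 21.5, 18.0 and 22 at 24 h, 15.1, 14.6, 17.7, 16.9 and 20.1 at 96 h and 21.5, 24.3, 24.0 and 25.0 at 216 h. Every tumor at 24, 96 and 216 h was below every tumor at 0 h, with differences of -0.89 ± 0.10, -1.12 ± 0.10 and -0.65 ± 0.10 (limma adjusted p = 0.000495, 1.18e-05 and 0.0003).

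Markers of several cell types were examined beside the members. In bulk tumors, fewer cells of a type and less RNA per cell cannot be told apart. The fibroblast markers had a summed level of 252 to 376 FPKM at 0 h, 147 to 371 at 24 h, 247 to 510 at 96 h and 905 to 1298 at 216 h, where 7 of 8 rose. The leukocyte markers summed to 56.2 to 87.3 FPKM at 0 h and 107 to 185 at 216 h, where 6 of the 8 tested rose and CD68 fell. The animal with the highest fibroblast sum at 96 h, animal 27 (510 FPKM), also had the highest GSN, TAGLN, ACTG2, CNN1, SYNPO2, LMOD1 and MYH11 at that time. In that order they were at 38.0, 14.8, 11.9, 0.864, 1.61, 0.157 and 0.0940 FPKM. Animal 6, next in the fibroblast sum (473 FPKM), had 16.5, 8.53, 7.18, 0.0966, 0.891, 0.0318 and 0.0218 FPKM. These genes are a selection, since animal 27 was also the highest at 96 h for ACTA2, TAGLN2, MYH9, PDLIM7, SYNPO and SRF. Animal 6 was the highest at that time for other members, among them ACTB, TPM1, CALD1 and ARPC1B. A relation of any of these genes to the fibroblast sum was not tested. Pericyte and smooth muscle markers summed to 24.4 to 52.5 FPKM at 0 h and 58.0 to 79.2 at 216 h, with 0 of 5 called by limma (4 at an unadjusted p under 0.05), and their defining members MYH11, CNN1 and LMOD1 were near 0 throughout. Skeletal muscle markers ran from 2.58 to 98.1 FPKM at 0 h and 5.88 to 135 at 216 h, with 0 of 8 called (1 at an unadjusted p under 0.05), and the 0 h tumor at 98.1 also had the highest FHL1 at 0 h (8.67 FPKM). Endothelial markers summed to 4.15 to 6.63 FPKM at 0 h and 5.93 to 13.2 at 216 h, with 1 of 4 higher, and of the mesothelial and epithelial markers KRT8 and KRT18 fell at 96 and 216 h and none of the 5 tested rose. The marker counts at an unadjusted p have no share of all gene rows beside them, since none was computed at that cut. The part of any of these cell types in the changes of ACTG2, TPM1, GSN, CORO1B, ARPC1B, PDLIM7 and SRF was not tested.

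The number of members called at 216 h depended on how the tumors were scaled, since the deposited values shift the median of all genes by 0.17. With each tumor shifted to the same median, 3 members were higher (TPM1, GSN and CORO1B) and 9 lower (ACTB, MYL6, MYL9, MYL12A, FHL2, FLNC, TAGLN, FLNA and TPM2), and with the mitochondrially encoded genes left out of the scaling 5 were higher and 5 lower. With quantile normalization 3 were higher, again TPM1, GSN and CORO1B, and 3 lower (FHL2, FLNC and TAGLN). Over all genes the share of called genes that were higher was 84.6% with the deposited scaling, 68.1% without the mitochondrially encoded genes, 51.4% with quantile normalization and 43.4% with median scaling. The rises of TPM1, GSN and CORO1B at 216 h passed the test under each of the 10 alternatives and without each single tumor of the groups compared. The 6 rises between 96 and 216 h passed under none of these 3 scalings.

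**Figure D5:**
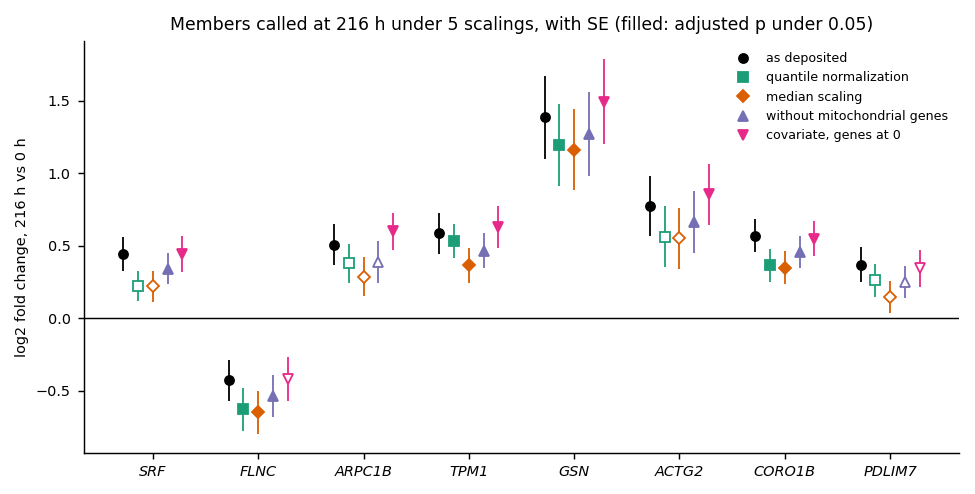
Difference at 216 h against 0 h on the log2 scale, with SE, of the 8 members called with the deposited values, under 5 scalings, filled where the adjusted p was under 0.05. TPM1, GSN and CORO1B are filled under all 5, and each member keeps its direction.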

How the data were processed

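Total RNA from 18 tumors was sequenced as paired ends on a NextSeq 500 after library preparation with the KAPA RNA HyperPrep Kit and capture with the KAPA HyperCap kit. The authors deposited 1 table of FPKM values with 20555 rows. The submitters' processing notes name STAR and GRCh38, while versions, counting, use of strand and handling of host reads are not given in the sources used here. Capture and mapping of host reads can both affect the level of a gene. The gene versions match GENCODE 29, start positions were counted from 0 and were raised by 1, and 4 empty cells were read as 0. The table has 47 rows for the 44 members, because CFL1 and DIAPH1 have several. Their row with the highest mean was used, and the other CFL1 row was at 0 in all tumors. The deposited FPKM hold no depth: 509 genes have values above 0 but below 1e-05, so whole reads could not be recovered. Groups were taken from the time point in the labels. No 2 of the 18 tumors held identical values, and log2(FPKM + 1) correlated at 0.970 to 0.991 within groups.

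Rows with at least 1 FPKM in at least 4 tumors were tested on log2(FPKM + 1), a scale that understates the changes of low genes, with limma 3.58.1 in R 4.3.3 (trended empirical Bayes, 4 groups in 1 model, Benjamini-Hochberg adjustment over all 11379 rows). The script was tested on simulated data. Differences with ± are log2 differences with SE. The 3 paralog ratios were compared with two-sided exact permutation tests (Python 3.11.15, scipy 1.17.1). Values in every tumor are given for each member called against 0 h, for ACTB, ACTG1, ACTA2, TAGLN, MYL9, MYH9, MYH11, CNN1 and SRF whatever their change, and for YAP1. Of the other actin genes, the 3 called genes of largest rise and of largest fall at 216 h are named, and MSN, called at 24 h, is given in every tumor by a choice made after its values were seen, as were the members named just outside the threshold. The members, lists and alternatives were chosen with earlier results of these data known.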

Additional observations from a re-analysis of the deposited data

Results flagged for a closer look

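In groups of 4 or 5 tumors, 1 tumor stood farther from the rest than Dixon's test allows in 7 of the 72 groups of values examined, where chance alone would give 3.6. At 96 h, animal 27 was the highest for GSN (38.0 FPKM, next 16.5), TAGLN (14.8 FPKM, next 8.53) and CNN1 (0.864 FPKM, next 0.0979), and animal 30 was the highest for FLNC (11.0 FPKM, next 8.37). At 216 h, animal 18 was the highest for ACTB (787 FPKM, next 729) and animal 19 for CNN1 (0.646 FPKM, next 0.131). At 24 h, animal 7 was the lowest for MYH9 (86.7 FPKM, next 119).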

How the results depend on the processing

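Leaving out single tumors gave 0 to 1 members lower at 24 h, 0 to 2 lower at 96 h, 6 to 9 higher and 0 to 3 lower at 216 h, and 2 to 7 higher and 0 to 1 lower between 96 and 216 h. With only the 2 groups compared in the fit, members lower numbered 0 at 24 h, 1 at 96 h, 0 at 216 h and 1 between 96 and 216 h. Without a filter on low values they numbered 0 at 24 h and 1 at 96 h. A filter of 5 FPKM gave 1 lower between 96 and 216 h. Quantile normalization gave 0 lower at 24 h, 3 higher and 3 lower at 216 h, and 0 higher and 1 lower between 96 and 216 h. Median scaling gave 3 higher and 9 lower at 216 h, and 0 higher and 1 lower between 96 and 216 h. Scaling without the mitochondrially encoded genes gave 5 lower at 216 h, and 0 higher and 1 lower between 96 and 216 h. A term for tumors with few or many genes listed at 0 gave 0 lower at 96 h and 216 h and 0 higher between 96 and 216 h. Some counts held while the members differed: that term called CNN2 lower at 24 h in place of CALD1, and quantile normalization called MYL9 and DIAPH3 lower at 96 h, without CALD1. In the tumors with many genes listed at 0 alone, an alternative chosen after seeing the data, 0 were lower at 24 h and at 216 h, and 7 were higher at 216 h, with FHL1 and TPM3 in place of PDLIM7 and SRF. No member was higher at 24 or 96 h under any alternative run. No called member changed direction under any alternative. The ratio of MYH10 to MYH9 at 216 h changed sign without tumor 2 (-0.025) or 4 (-0.011) at 0 h or tumor 4 at 216 h (-0.022), over a range of -0.025 to 0.23, and that of MYL12B to MYL12A at 24 h in the tumors with many genes listed at 0 alone (0.0051). The causes were not tested. No paired analysis was possible because each mouse belongs to 1 time point and the labels carry no shared replicate numbers. The unknown depth leaves the counting error of low members, such as CNN1, LMOD1 and MYH11, unknown.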
